A study of Mus musculus with 7 samples.

Results

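The genes described here are the tumor necrosis factor (TNF) receptors and ligands, the adaptors that carry a death signal from them, the TRAF proteins, the RIP kinases and the TNF-alpha induced proteins. They were chosen by symbol alone, as every gene of the authors' deposited table whose symbol begins with Tnfrsf, Tnfsf or Tnfaip, is Traf or Ripk followed by a digit, or is *Tnf*, *Fas*, *Fasl*, *Fadd*, *Tradd*, *Cflar*, *Cradd*, *Ltbr*, *Lta* or *Ltb*. This gave 40 of the 22877 genes in the table. GENCODE M21 holds 62 symbols of this form, and 22 of them have no row in the table: the ligands *Tnf*, *Lta*, *Ltb*, *Fasl*, *Tnfsf4*, *Tnfsf8*, *Tnfsf9*, *Tnfsf14*, *Tnfsf15* and *Tnfsf18*, the receptors *Ltbr*, *Tnfrsf1b*, *Tnfrsf11b*, *Tnfrsf13b*, *Tnfrsf14* and *Tnfrsf25*, the kinase *Ripk3*, and *Tnfaip2*, *Tnfaip6*, *Tnfaip8l1*, *Tnfaip8l2* and *Tnfaip8l3*. The text makes no statement on the level of these 22 genes.

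The transcriptome was measured in oocytes taken out of secondary follicles of 8-week-old C57BL/6J females. *Mfn1*-/- stands for mice with floxed *Mfn1* alleles and a Cre recombinase driven by the Zp3 promoter, which is active in growing oocytes, so the granulosa cells around the oocyte keep the gene, and the controls were wild-type (WT) littermates whose floxed alleles, if any, are not given in the sources used here. Each library pooled 5 oocytes, and the labels list 3 *Mfn1*-/- and 4 WT libraries, where the study's own text gives 3 of each. The table gives 1 mean of normalized counts per genotype and no value of a single library, so that neither the spread between replicates nor the depth of a library is known, and no difference below was tested or has a replicate check. *Mfn1* itself had a mean of 0.0577 normalized counts in *Mfn1*-/- oocytes against 0.616 in WT. Where a pair of means is given without a genotype, the *Mfn1*-/- value stands before the WT value.

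Members of the TNF receptor family sit in the plasma membrane and bind trimeric ligands of the TNF family. A few receptors carry a death domain, through which FADD, bound directly or by way of TRADD, recruits caspase 8 and starts apoptosis. Most others recruit TRAF proteins, which lead to NF-kB and JNK signaling. RIPK1 lies at the branch between survival, apoptosis and necroptosis, and CFLAR holds caspase 8 in check. In the ovary these pathways are best known from the apoptosis of granulosa cells in follicular atresia and from the loss of germ cells.

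The oocytes listed transcripts of the intracellular arm of the TNF pathway, and most of the receptors stood close to the lowest value of the table, 0.01. Of 16 receptors, 13 had a mean over the libraries under 0.1, where 45% of the members and 39.5% of all genes had. The sum over the 40 members was 25.6 normalized counts in *Mfn1*-/- oocytes against 19.4 in WT, a ratio of 1.32, where the sum over all genes had a ratio of 1.10. A mean over the libraries of at least 1 normalized count was reached by 7 members, namely *Traf4*, *Tnfrsf12a*, *Tnfaip8*, *Tnfaip1*, *Fadd*, *Tnfsf13b* and *Tradd*. These were 17.5% of the members, where 27.2% of all genes reached such a mean. The scale of the values was not named: among genes listed at 0.01 in WT, the median *Mfn1*-/- mean was 0.1125 in the shortest of 4 groups by exon length and 0.01505 in the longest, so the values were at least partly per length, and levels of different genes are set side by side on that footing. The 7 abundant members made up 79.9% of the summed members in *Mfn1*-/- oocytes against 69.7% in WT. Of the 7, 6 had the higher mean in *Mfn1*-/- oocytes and *Tnfaip8* had the lower, where 65.4% of all genes with a mean of at least 1 had the higher mean. Because each library holds whole cells in bulk, fewer cells of a type and less RNA per cell cannot be told apart in any of these values.

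**Figure D1:**
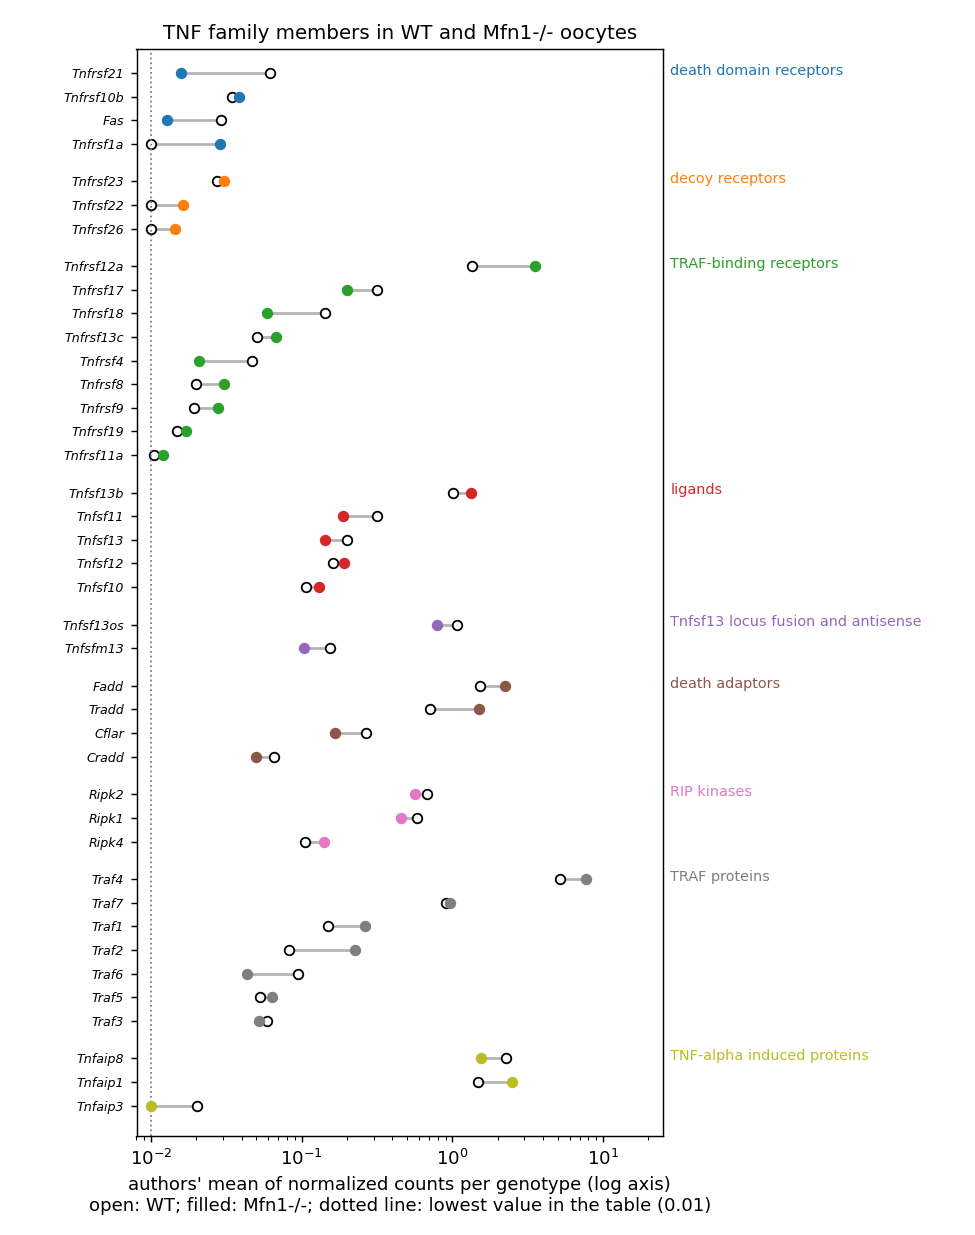
Authors' means of normalized counts for the 40 members on a log axis, grouped by role, with WT as open and *Mfn1*-/- as filled circles and the lowest value of the table, 0.01, as a dotted line. The death domain and decoy receptors lie under 0.1 in both genotypes, while *Traf4*, at 7.75 and 5.14, lies farthest to the right.

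Changes are given as the log2 fold change of the *Mfn1*-/- over the WT mean after adding a pseudocount of 0.1 to each, which draws the change of low genes toward 0. *Tnfrsf12a* was the 1 member of 40 past a 2-fold change toward *Mfn1*-/-, where 4.89% of all genes were. No member was past a 2-fold change toward WT, where 2.76% of all genes were. Among the 7 members with a mean of at least 1, *Tnfrsf12a* was again the 1 gene past 2-fold higher and 0 were past 2-fold lower, beside 5.49% and 3.24% of the 6226 genes with such a mean. The members' counts therefore lie near what the whole table shows. Their median log2 fold change was 0.040 and that of all genes 0.037, and 23 members were higher and 17 lower in *Mfn1*-/- oocytes, so that 57.5% of the members and 56.7% of all genes had the higher mean. The 7 abundant members had a median of 0.58, beside 0.16 for all genes with a mean of at least 1. This median of 0.16 is called the shared shift here, though of the genes with such a mean 4069 were higher and 2130 lower. After it was subtracted 12 members were higher and 28 lower, where 8399 of all genes were higher and 14478 lower. The subtraction turns low genes, whose values the pseudocount holds near 0, by construction. Of the 7 abundant members 6 were still higher, where 3113 of the 6226 genes with such a mean were.

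**Figure D2:**
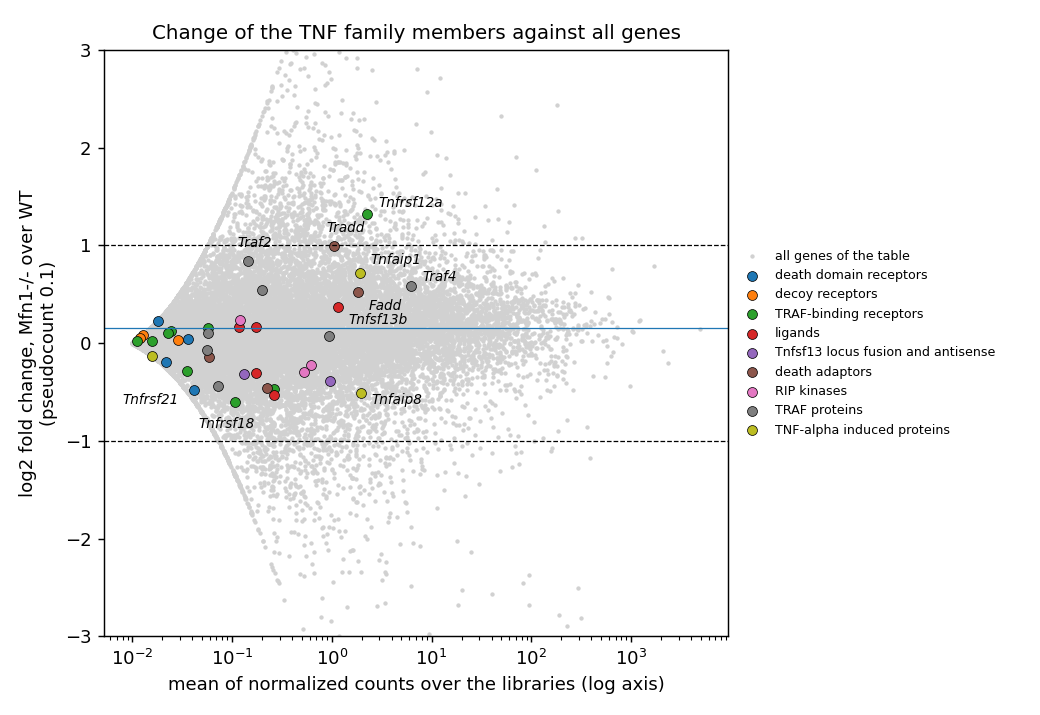
Log2 fold change of *Mfn1*-/- over WT (pseudocount 0.1) against the mean of normalized counts over the libraries (log axis), with all genes in gray, the members in the color of their role, the 2-fold limits dashed and the median of genes with a mean of at least 1 as a blue line, and with 48 genes outside the drawn range. *Tnfrsf12a* is the member above the upper limit, at 1.32, and *Tradd* touches it at 0.99.

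*Tnfrsf12a* encodes the receptor of TWEAK, also known as Fn14, a small receptor without a death domain that signals through TRAF proteins. It lies on chromosome 17 of GRCm38 from 23675445 to 23677468 on the minus strand, and its exons overlap no other gene of GENCODE M21. Its mean was 3.52 normalized counts in *Mfn1*-/- oocytes against 1.35 in WT, a ratio of 2.61. The log2 fold change was 1.32, and 1.16 after the shared shift was subtracted. Of the 2970 genes whose mean lay within 2-fold of its own, 96.4% had a lower log2 fold change. With a pseudocount of 1 the value was 0.94, under a 2-fold change. *Tnfrsf12a* made up 13.8% of the summed members in *Mfn1*-/- oocytes against 6.97% in WT. The summed members had a ratio of 1.25 without *Traf4* and of 1.11 without *Traf4* and *Tnfrsf12a*, beside 1.10 for the whole table. These 2 genes were picked by their values, and each had a higher ratio than the sum. Leaving them out therefore lowers the ratio by construction.

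The promoter of *Tnfrsf12a* is shown because it is the member with the highest log2 fold change, and that of *Traf4* because it is the member with the highest mean. Each run holds bases 250 to 51 before the RefSeq start (GRCm38.p6), read 5′ to 3′ on the gene's own strand, and capitals mark GC boxes, the letters GGGCGG on either strand.
*Tnfrsf12a*, chr17:23677500-23677699, minus strand: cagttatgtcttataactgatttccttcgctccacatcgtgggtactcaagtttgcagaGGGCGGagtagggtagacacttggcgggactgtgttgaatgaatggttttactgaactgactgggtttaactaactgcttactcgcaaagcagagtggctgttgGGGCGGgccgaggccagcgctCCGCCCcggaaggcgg
*Traf4*, chr11:78165601-78165800, minus strand: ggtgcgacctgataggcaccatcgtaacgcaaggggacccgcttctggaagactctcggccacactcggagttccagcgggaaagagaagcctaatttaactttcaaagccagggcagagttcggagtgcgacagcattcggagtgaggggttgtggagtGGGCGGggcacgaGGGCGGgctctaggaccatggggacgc
The window held 3 GC boxes in *Tnfrsf12a* and 2 in *Traf4*, and 24.6% of the 32851 RefSeq promoter windows of this length held at least 1. Neither window held a TATA box (TATAAA, in 9.14% of all windows), a CCAAT box (CCAAT, 28.4%), an AP-1 site (TGANTCA, 5.57%) or the ATF4-type letters TGATGNAA (2.72%). A loose form of the NF-kB site, GGG and CC with any 5 bases between them, was found 1 time in *Tnfrsf12a* and 0 times in *Traf4*, and in 37.2% of all windows. Of the 40 members, 31 had at least 1 window, 36 windows in all. Of the 36, 15 (41.7%) held this form and 13 (36.1%) a GC box. By member, 14 of the 31 held this form in a window and 12 a GC box. All letters were searched on both strands, and a match only describes the letters of a window.

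Of 15 ligands listed, 5 had a row. *Tnfsf13b*, the B cell survival factor BAFF, had the highest mean of them, 1.33 normalized counts in *Mfn1*-/- oocytes against 1.01 in WT, a log2 fold change of 0.37. Of 3581 genes with a mean within 2-fold of its own, 68.3% had a lower value, so its difference lay within what genes of this level commonly showed. *Tnfsf11*, which encodes the bone-resorbing cytokine RANKL, had means of 0.188 and 0.317, lower in *Mfn1*-/- oocytes. *Tnfsf10*, the death ligand TRAIL, had 0.131 and 0.106. *Tnfsf12*, which encodes TWEAK, the ligand of the *Tnfrsf12a* product, had 0.192 in *Mfn1*-/- oocytes against 0.161 in WT, a log2 fold change of 0.16, and 0.0027 after the shared shift was subtracted. The log2 fold change of the receptor was 1.32, above that of its ligand.

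*Tnfsf12* and *Tnfsf13*, the latter encoding the plasma cell factor APRIL, are neighbors on chromosome 11 and share exons with *Tnfsfm13*, a fusion gene that runs through both (69682577 to 69696098, minus strand). *Tnfsf13* had means of 0.142 and 0.199 and *Tnfsfm13* 0.104 and 0.153 normalized counts in *Mfn1*-/- and WT oocytes. The antisense gene *Tnfsf13os*, on the plus strand from 69682138 to 69691141, had the highest means of the locus, 0.796 and 1.07. Its exons overlap those of *Tnfsf13* and *Tnfsfm13*, the library method does not mark strand, and reads of these 4 genes that fall in shared exons cannot be told apart. *Tnfsf13*, *Tnfsfm13* and *Tnfsf13os* were lower in *Mfn1*-/- oocytes, with log2 fold changes between -0.38 and -0.31, and *Tnfsf12* was not.

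The receptors with a death domain were low in both genotypes. *Tnfrsf21*, known as death receptor 6, had means of 0.0158 normalized counts in *Mfn1*-/- oocytes against 0.0613 in WT. *Tnfrsf10b*, the mouse TRAIL receptor, had 0.0385 and 0.0343. *Fas* had 0.0127 and 0.029. *Tnfrsf1a*, the main receptor for TNF itself, had 0.0286 in *Mfn1*-/- oocytes and was listed at the lowest value of the table, 0.01, in WT. The summed means of these 4 receptors were 0.0956 and 0.135, or 0.374% and 0.695% of the summed members. Of the 4, 2 had the higher and 2 the lower mean in *Mfn1*-/- oocytes. The number of reads behind such means is not known.

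The decoy receptors *Tnfrsf22*, *Tnfrsf23* and *Tnfrsf26*, which carry no death domain and of which *Tnfrsf22* and *Tnfrsf23* are known to bind TRAIL, lie side by side on chromosome 7 between 143607659 and 143685872. Their means ran from 0.01 to 0.0304 normalized counts, with *Tnfrsf22* and *Tnfrsf26* listed at the lowest value in WT oocytes. No gene of the table was at the lowest value in both genotypes, so a gene listed at it in WT could only be higher in *Mfn1*-/- oocytes. *Tnfrsf23* and *Tnfrsf26* overlap exons of the antisense gene E230032D23Rik.

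The receptors that bind TRAF proteins numbered 9, and apart from *Tnfrsf12a* none had a mean of at least 1. *Tnfrsf17*, the plasma cell receptor BCMA, had 0.201 normalized counts in *Mfn1*-/- oocytes against 0.316 in WT, and *Tnfrsf18*, the T cell costimulator GITR, had 0.0591 and 0.142. Both were lower in *Mfn1*-/- oocytes. With a pseudocount of 0.1, the value of *Tnfrsf18*, -0.61, was the lowest log2 fold change of any member. With a pseudocount of 0.01 it came to -1.14, past a 2-fold change, but *Tnfrsf21* was then the lowest, at -1.47. With a pseudocount of 1 it was -0.11, and *Tnfaip8* was the lowest, at -0.35. Exons of *Tnfrsf18* overlap those of the opposite-strand gene *Gm16008*. *Tnfrsf4*, the costimulator OX40 and neighbor of *Tnfrsf18* (both within chromosome 4 from 156013843 to 156028895), was also lower in *Mfn1*-/- oocytes, with means of 0.0208 and 0.0468. *Tnfrsf13c*, *Tnfrsf8*, *Tnfrsf9*, *Tnfrsf19* and *Tnfrsf11a* had slightly higher means in *Mfn1*-/- oocytes, all under 0.1.

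Ligands and receptors that bind each other were also looked at as pairs, without the decoy receptors of TRAIL. Of 19 textbook pairs of a ligand and a receptor of the family, 9 had both genes in the table. In 3 of them both partners had means of at least 0.1 in both genotypes. These pairs were *Tnfsf12* with *Tnfrsf12a*, and *Tnfrsf17* with *Tnfsf13b* or with *Tnfsf13*. In the pair of *Tnfsf10* and *Tnfrsf10b* the ligand exceeded 0.1 and the receptor did not.

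Of the 4 adaptors of the death signal, *Tradd* and *Fadd* had a mean of at least 1, and *Cflar* and *Cradd* did not. *Tradd* encodes the adaptor of TNF receptor complexes and lies on chromosome 8 from 105258286 to 105264609, with no overlap of its exons. Its mean was 1.51 normalized counts in *Mfn1*-/- oocytes against 0.709 in WT, a ratio of 2.13, and the log2 fold change of 0.99 lay just under a 2-fold change. It passed 2-fold with a pseudocount of 0.01, at 1.08, and was 0.83 after the shared shift was subtracted. Of 3669 genes of similar mean, 90.2% had a lower value.

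*Fadd*, the adaptor that recruits caspase 8 (chromosome 7, 144577318 to 144582463), had means of 2.24 in *Mfn1*-/- oocytes against 1.53 in WT and a log2 fold change of 0.52. Its exons overlap those of an antisense gene, *Faddos*. Both adaptors were therefore higher, while *Cflar*, the inhibitor of caspase 8 activation, had the lower mean in *Mfn1*-/- oocytes, 0.167 against 0.267. The log2 fold change of *Cflar* was -0.46. *Cradd*, an adaptor for caspase 2, had 0.0499 and 0.0655. None of the 4 adaptors was past 2-fold with a pseudocount of 0.1, beside 4.89% of all genes higher and 2.76% lower.

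The RIP kinases had intermediate means. *Ripk1* had 0.457 normalized counts in *Mfn1*-/- oocytes against 0.585 in WT. *Ripk2*, which acts downstream of NOD receptors, had 0.563 and 0.675. *Ripk4*, best known from the epidermis, had 0.141 and 0.105. The log2 fold changes ran from -0.30 to 0.23, with *Ripk1* and *Ripk2* lower and *Ripk4* higher in *Mfn1*-/- oocytes, and exons of *Ripk1* overlap those of *Serpinb6a* and *Gm17084*.

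All 7 TRAF genes had a row, and they held more of the summed members than any other role, 36.6% in *Mfn1*-/- oocytes against 33.5% in WT. The greater part of this was *Traf4*, a TRAF protein known from epithelial and neural development rather than from TNF signaling (chromosome 11, 78158499 to 78165589), which had means of 7.75 and 5.14 normalized counts and a higher mean over the libraries than 89.3% of all genes. Its log2 fold change was 0.58, and 0.42 after the shared shift was subtracted. Of 2025 genes of similar mean, 86.0% had a lower value.

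*Traf2*, the TRAF protein of the TNF receptor complex, had 0.227 in *Mfn1*-/- oocytes against 0.0828 in WT. This gave a log2 fold change of 0.84, and of 1.35 where the pseudocount was 0.01. *Traf1*, its inducible partner, had 0.264 and 0.15 and was also higher. *Traf6*, which serves interleukin-1 and Toll-like receptors, had 0.0432 and 0.094 and was lower. *Traf3*, with a log2 fold change of -0.068, *Traf5*, with 0.099, and *Traf7*, with 0.074 at means of 0.961 and 0.908, differed little between the genotypes. *Traf4*, *Traf2* and *Traf1* remained higher after the shared shift was subtracted.

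The TNF-alpha induced proteins are named for their induction by TNF in endothelial cells and share no single function. *Tnfaip1*, which encodes an adaptor of a cullin ubiquitin ligase that acts on RhoA (chromosome 11, 78522850 to 78536332), had means of 2.50 normalized counts in *Mfn1*-/- oocytes against 1.48 in WT, a log2 fold change of 0.72. *Tnfaip8*, a regulator of cell survival and phosphoinositide transfer (chromosome 18, 49979427 to 50107173), had 1.56 and 2.27, a log2 fold change of -0.51. The 2 genes had nearly equal means over the libraries, 1.92 and 1.97, and differed in opposite directions. Of genes of similar mean, 86.4% lay below *Tnfaip1* and 11.4% below *Tnfaip8*. Exons of *Tnfaip8* overlap those of the opposite-strand gene *C030005K06Rik*. *Tnfaip3*, the ubiquitin-editing enzyme A20 and a classical target of NF-kB, was listed at the lowest value, 0.01, in *Mfn1*-/- and at 0.0202 in WT oocytes.

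**Figure D3:**
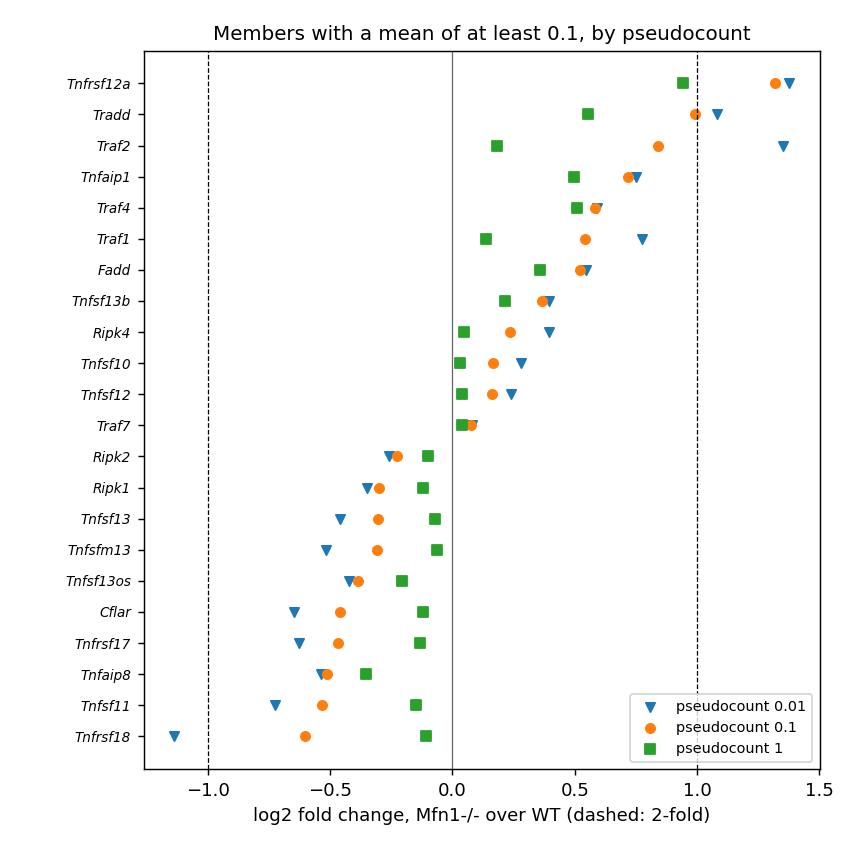
Log2 fold change of *Mfn1*-/- over WT for the 22 members with a mean of at least 0.1, computed with pseudocounts of 0.01, 0.1 and 1, with the 2-fold limits dashed. The order at the top changes for *Traf2*, which moves from 0.18 to 1.35, while *Traf4* stays between 0.51 and 0.59.

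Of 57 genes of the TNF pathway that the symbols above do not cover, 56 had a row. Their median log2 fold change was 0.085, beside 0.037 for all genes. In *Mfn1*-/- oocytes 34 genes, or 60.7%, were higher and 22 lower, where 56.7% of all genes were higher. Past 2-fold 2 were higher and 1 lower, beside 4.89% of all genes higher and 2.76% lower. In the caspase arm 1 of 13 genes was past 2-fold, the executioner *Casp6*, with means of 1.78 in *Mfn1*-/- oocytes against 0.449 in WT and a log2 fold change of 1.78. *Casp8*, the initiator that FADD recruits, had the lower mean in *Mfn1*-/- oocytes, 0.886 against 1.34. The adaptors *Tradd* and *Fadd* thus had the higher mean and *Casp8* the lower mean in *Mfn1*-/- oocytes.

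The inhibitors of apoptosis that sit on the TNF receptor complex were *Birc3*, with 6.81 and 6.37 normalized counts, and *Birc2*, with 0.487 and 0.419, and *Xiap* had 0.117 and 0.106. Their log2 fold changes lay between 0.075 and 0.18. In the NF-kB arm, 16 of 25 genes were higher and 9 lower, or 64.0% higher beside 56.7% of all genes. Past 2-fold there was 1 in each direction, beside 4.89% of all genes higher and 2.76% lower. After the shared shift was subtracted, 12 of the 25 were higher and 13 lower. *Rnf31*, the catalytic subunit of the linear ubiquitin ligase, had means of 0.441 and 0.155 and a log2 fold change of 1.09, which was under 2-fold once the shared shift was subtracted, and its exons overlap those of *Irf9*. *Nfkbie*, an inhibitor of NF-kB, had 0.26 and 0.76 and a log2 fold change of -1.26.

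The most abundant gene of the arm was the inhibitor *Nfkbia*, with 38.1 and 26.1 normalized counts and a log2 fold change of 0.54. The subunit *Rela* had 3.77 and 2.30, and *Nfkb1* 0.0287 and 0.0318. All 6 genes of the arm with a mean of at least 1 were higher in *Mfn1*-/- oocytes, and 5 of them after the shared shift was subtracted, where 65.4% of all genes of that level were higher before it was subtracted and 3113 of 6226 after. In the JNK and p38 arm 0 of 9 genes were past 2-fold, beside 4.89% of all genes higher and 2.76% lower. *Mapk8*, which encodes JNK1, had 0.394 and 0.534.

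**Figure D4:**
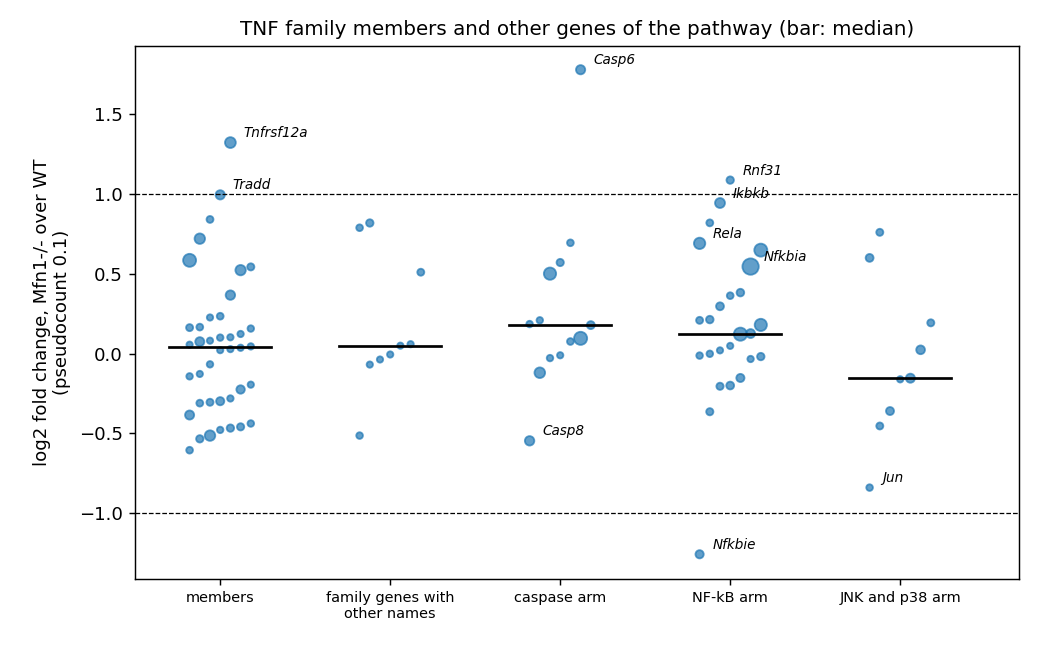
Log2 fold change of *Mfn1*-/- over WT (pseudocount 0.1) for the members and for other genes of the pathway by arm, with 1 point per gene, larger for a higher mean, black bars for the medians and dashed lines for 2-fold. *Casp6* (1.78), *Tnfrsf12a* (1.32) and *Rnf31* (1.09) lie above the upper limit and *Nfkbie* (-1.26) below the lower.

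The oocyte markers were abundant, and all 13 listed had a row, with *Gdf9* at 533 and 461, *Zp3* at 708 and 609 and *Bmp15* at 158 and 181 normalized counts in *Mfn1*-/- and WT oocytes. The germ cell factor *Sohlh1*, named after its values were seen, was the 1 of the 13 past 2-fold, with 3.68 and 0.105. Of all genes, 4.89% were past 2-fold higher and 2.76% past 2-fold lower. Of 13 granulosa cell markers 11 had a row, with summed means of 2.35 and 1.74, among which *Inha* made up 1.87 and 0.954, *Amh* and *Foxl2* stood under 0.1 in both genotypes and *Fst* had no row. Without *Inha* the granulosa markers summed to 0.484 and 0.781, higher in WT. Of 12 leukocyte markers 8 had a row, and they summed to 7.79 in *Mfn1*-/- oocytes against 0.824 in WT, of which *Cd68*, a lysosomal protein of macrophages, made up 7.58 and 0.672. Without *Cd68* they summed to 0.206 and 0.152, and the pan-leukocyte marker *Ptprc* had no row. The part of such cells in the values of the costimulatory receptors and of *Tnfrsf12a* was not tested.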

How the data were processed

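RNA was read from pools of 5 oocytes by Smart-Seq2 and Nextera XT libraries in paired Illumina reads. Per the labels and methods, the authors used Cutadapt and FASTX-Toolkit to clean the reads, STAR for alignment (mouse build GRCm38/mm10) and DESeq2 to test genes. The deposited signal values are the authors' mean normalized counts per genotype, with 3 significant digits and a lowest value of 0.01. The annotation, the counter and the normalization are not given in the sources used here, so depth per library is unknown. For 100% of genes the column of totals lay within 1% of the sum of both means weighted by 3 *Mfn1*-/- and 4 WT libraries. The authors' columns of ratios, fold changes, p-values and false discovery rates were not used.

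Log2 fold changes were computed from the means after adding 0.1, with 2-fold as the limit for counts, and the mean over the 7 libraries weighted each genotype by its libraries. No test was possible with 1 mean per genotype. The script was tested on simulated data. Gene positions and exon overlaps came from GENCODE M21 and promoters from RefSeq (GRCm38.p6), which had a window for 31 of 40 members. Python 3.11.15, numpy 2.4.6, pandas 2.3.3 and matplotlib 3.10.9 were used. Other pseudocounts, low-value limits, a fold limit of 1.5 and centring were tried. Values are given for the 7 members with a mean of at least 1, for members past 2-fold and for a fixed set of pathway genes, and further genes were named after their values were seen. The values of 1 gene of the fixed set are not reported here. The members and lists were chosen with earlier results of these data known.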

Additional observations from a re-analysis of the deposited data

How the results depend on the processing

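With a pseudocount of 0.01, 3 members were past 2-fold higher (*Tnfrsf12a*, *Traf2* and *Tradd*) and 2 past 2-fold lower (*Tnfrsf21* and *Tnfrsf18*), against 1 and 0 with 0.1, and with a pseudocount of 1 there were 0 higher. A fold limit of 1.5 gave 4 higher (*Tnfrsf12a*, *Tradd*, *Traf2* and *Tnfaip1*) and 1 lower (*Tnfrsf18*). The members' median log2 fold change of 0.040 became 0.12 and 0.0052 with pseudocounts of 0.01 and 1, 0.12 and 0.58 over members with means of at least 0.1 and 1, and -0.12 after centring. Pathway genes past 2-fold higher numbered 2, and 7 with a pseudocount of 0.01, 0 with 1, 1 among genes with a mean of at least 1, 1 after centring and 11 at a limit of 1.5. Those past 2-fold lower numbered 1, and 3 with a pseudocount of 0.01, 0 with 1, 0 among genes with a mean of at least 1 and 2 at a limit of 1.5. Their median of 0.085 became 0.16 and 0.021 with pseudocounts of 0.01 and 1, 0.21 and 0.50 at means of at least 0.1 and 1, and -0.074 after centring. A smaller pseudocount enlarges the change of low genes by construction. The share of all genes past a limit was computed only with a pseudocount of 0.1 and 2-fold, without centring. The counts of members and pathway genes at other pseudocounts, at 1.5 and after centring therefore have no such share beside them. Of 18 genes followed singly under 3 further settings each, *Birc3* (0.095 to -0.064) and *Nfkbib* (0.12 to -0.038), neither past 2-fold, changed sign after centring, and *Casp6* and *Tnfrsf12a*, both at 0.94 with a pseudocount of 1, came under 2-fold.

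No paired analysis was possible because the table gives no value of a single library, and leaving out each replicate in turn could not be run for the same reason. How far a single library sets any of these means is unknown.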

Other observations

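Family members that carry other names were low as well. Of 10 such genes 9 had a row, 5 with the higher and 4 with the lower mean in *Mfn1*-/- oocytes. The share with the higher mean was 55.6%, beside 56.7% of all genes. Past 2-fold there were 0, beside 4.89% of all genes higher and 2.76% lower. The names and levels of these family members were looked at after the values were seen. *Relt*, an orphan receptor of the family, had means of 0.402 normalized counts in *Mfn1*-/- oocytes against 0.185 in WT. The costimulatory pair of the receptor *Cd27* and its ligand *Cd70* had 0.213 and 0.12 for the receptor and 0.164 and 0.053 for the ligand. *Cd40*, the receptor that B cells use for T cell help, had 0.0485 and 0.112, lower in *Mfn1*-/- oocytes. *Eda2r* had no row.

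Of 14 textbook target genes of NF-kB, 9 had a row. Their median log2 fold change was 0.095, beside 0.037 for all genes. Of the 9, 5 were higher and 4 lower, or 55.6% higher beside 56.7% of all genes. Past 2-fold there were 0, beside 4.89% of all genes higher and 2.76% lower. *Sod2*, the mitochondrial superoxide dismutase, had means of 6.30 and 5.86 normalized counts, and the stress gene *Gadd45b* 1.60 and 1.69. The chemokine *Ccl2* had 1.26 in *Mfn1*-/- oocytes against 1.86 in WT. After the shared shift was subtracted, 3 of the 9 were higher and 6 lower, and *Ier3*, with means of 0.0616 and 0.206, came to -1.08. Of the 5 that were higher before it was subtracted, *Nfkbia*, *Birc3*, *Nfkb2* and *Relb* are also listed among the pathway genes, and *Sod2* is not. The 4 that were lower are not listed among the pathway genes.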
